A study of Mus musculus with 30 samples.

Results

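The effect of ginsenoside Rb2 given ahead of D-galactose was described from 6 of the 30 libraries of the series. They were the 3 libraries whose labels name Rb2 and then D-galactose (Rb2_Dgal) and the 3 whose labels name D-galactose alone (Dgal). The labels chose the libraries, with no measured value. Of 16025 gene symbols in the deposited table, 12184 had enough counts to be tested, and all of these were described.

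Ginsenoside Rb2 is a triterpene saponin of ginseng, in which sugar chains are attached to a steroid-like core. D-galactose in excess is given to cells and animals to bring on changes that resemble ageing, among them oxidative stress and loss of proliferation. C2C12 is an established line of mouse myoblasts that leave the cell cycle and fuse into multinucleated myotubes when serum is lowered, while some cells stay mononucleated.

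All groups were wild-type C2C12 myotubes formed in low-serum medium. Dgal cultures received D-galactose at 20 mg/mL for 24 h after 12 h with vehicle, and Rb2_Dgal cultures received the same D-galactose after 12 h with Rb2 at 20 µM. The reference groups, of 3 libraries each, were vehicle-treated cultures (control) and cultures given 20 µM Rb2 for 12 h with no D-galactose (Rb2), whose harvest time beyond those 12 h is not given in the labels. The replicates were cultures of 1 cell line, so that the p-values measure the spread between cultures.

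Totals of the 6 libraries ran from 22209229 to 26878236 counts. Levels are in CPM, counts scaled to a common library size, and 3 counts made 0.112 to 0.135 CPM. Replicates differed by more than counting noise, with a chi-square per degree of freedom of 2.64 to 6.28. Of 11 tested myotube marker genes none was called, and their summed share was 2.66% to 2.7% of the counts in Dgal and 2.60% to 2.67% in Rb2_Dgal. Summed myoblast markers took 428 to 435 CPM in Dgal and 436 to 453 CPM in Rb2_Dgal, and 2 of 14 were called, Ccnd1 and Vcam1, both higher. The call of Ccnd1 was lost without Dgal 1, Dgal 2, Rb2_Dgal 2 or Rb2_Dgal 3 (adjusted p up to 0.216). Of 9 adipocyte markers 2 could be tested and neither was called, and Plin1, Cfd and Retn were at 0 in all 6 libraries. Of 12 bone and cartilage markers, 81.5 to 90.0 CPM in sum in Dgal and 87.3 to 91.2 CPM in Rb2_Dgal, 5 could be tested. Acan, which marks cartilage, was at 0, and Dmp1, a matrix protein gene of bone cells, rose from 3.66, 2.54 and 2.10 CPM to 4.20, 4.86 and 5.09 CPM (0.79 ± 0.15 on the log2 scale, adjusted p = 0.00218 in edgeR), a call that no alternative fit ended. The share of mitochondrially encoded genes was 1.32% to 1.68% in Dgal and 1.20% to 1.32% in Rb2_Dgal, against 0.727% to 1.14% in control and 0.764% to 1.01% in Rb2.

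To ask which genes differed when Rb2 preceded D-galactose, Rb2_Dgal was compared with Dgal. Genes of cell division, fibrillar collagens and the growth factor gene Ptn were among those that rose, and feedback genes of Wnt signalling, activin subunits and smooth-muscle-type contractile genes were among those that fell. At a Benjamini-Hochberg adjusted p under 0.05 in edgeR's quasi-likelihood test (a gene past it is named called, and is said to have risen or fallen), 141 genes (1.16% of those tested) rose and 134 (1.1%) fell, 2.26% in all. The changes were small: the median size of a called log2 fold change was 0.29 (interquartile range 0.19 to 0.46), and 2 genes passed a 2-fold change. Those were Mxd3, which encodes a MYC-antagonist of the MAD family (1.13 ± 0.24, SE), and Grb10, which encodes an adaptor that dampens insulin and IGF receptor signalling (1.06 ± 0.29), with means of 1.05 and 0.526 CPM in Dgal. Both are named after their values were seen. The call of Mxd3 was lost without Dgal 2 or Rb2_Dgal 3 (adjusted p up to 0.0615), and that of Grb10 with DESeq2 and without any of Dgal 1 to 3, Rb2_Dgal 1 or Rb2_Dgal 3 (adjusted p up to 0.194). Across all tested genes the median log2 fold change was 0.0022, and the 5th and 95th percentiles were -0.27 and 0.23. The total was sensitive to single libraries. It was 126 without Dgal 2, 166 without Rb2_Dgal 1, 182 without Rb2_Dgal 2 and 161 without Rb2_Dgal 3. Of the 275 genes, 89 were called under all 11 alternatives tried (4 other settings of the fit, DESeq2 and each of the 6 libraries left out in turn), 43 higher and 46 lower.

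**Figure D1:**
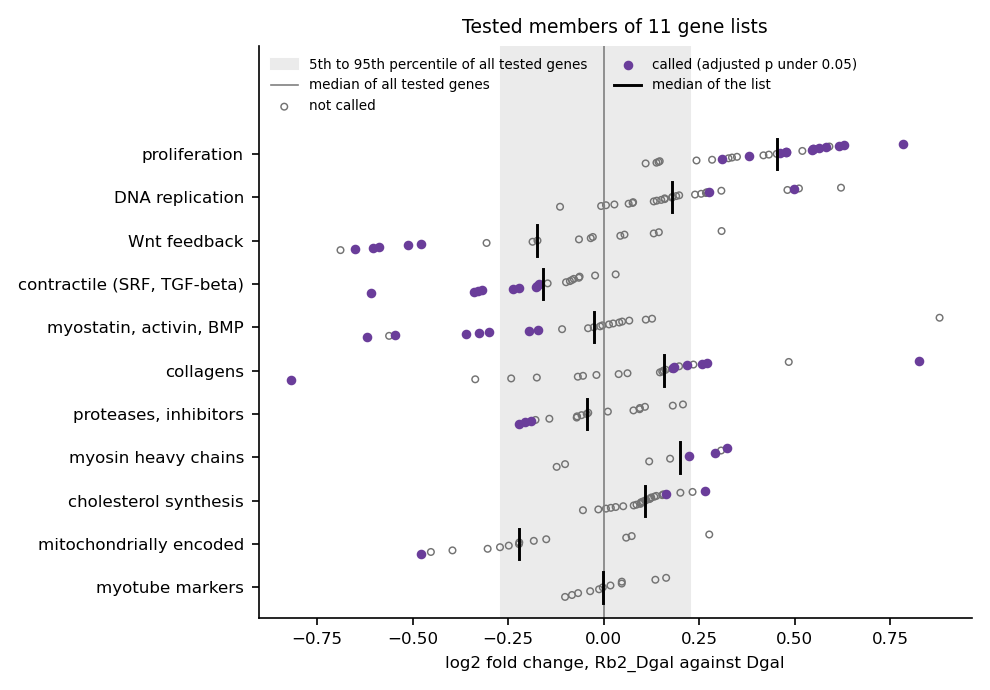
Log2 fold change of each tested member of 11 gene lists in Rb2_Dgal against Dgal (x axis), 1 point per gene, filled where called, with the median of each list as a black bar. The grey band spans the 5th to 95th percentile of all tested genes, -0.27 to 0.23. All 27 proliferation genes lie right of 0, and the called Wnt feedback and contractile genes lie left of it.

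Genes of cell division were higher in Rb2_Dgal than in Dgal. Of 27 tested proliferation genes 13 rose, against 1.16% of all tested genes, and 0 fell. All 27 had a positive log2 fold change, with a median of 0.45. Top2a, the topoisomerase that untangles DNA before mitosis, stood at 25.1, 22.6 and 24.8 CPM in Dgal 1 to 3 and at 37.4, 36.2 and 38.5 CPM in Rb2_Dgal 1 to 3. Nuf2, a kinetochore protein gene, stood at 4.15, 3.97 and 4.43 CPM in Dgal and at 7.52, 7.41 and 6.81 CPM in Rb2_Dgal. Ccna2, which encodes cyclin A2, stood at 10.2, 10.3 and 12.0 CPM in Dgal and at 16.5, 14.1 and 17.7 CPM in Rb2_Dgal. For these genes every Rb2_Dgal library was above every Dgal library, which the rule for the largest rises required of Top2a and Nuf2. The log2 fold changes were 0.63 ± 0.10 for Top2a (adjusted p = 0.000409), 0.78 ± 0.10 for Nuf2 (adjusted p = 1.07e-05) and 0.56 ± 0.082 for Ccna2 (adjusted p = 5.03e-05).

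The other called members were Kif23 (0.62 ± 0.10) and Ect2 (0.46 ± 0.095), which act in the division of the cytoplasm, the kinases Aurkb (0.58 ± 0.13) and Plk1 (0.55 ± 0.12), the spindle motors Kif11 (0.55 ± 0.12), Cenpe (0.54 ± 0.11) and Kif20a (0.38 ± 0.078), the spindle assembly factor Tpx2 (0.31 ± 0.075), the anaphase activator Cdc20 (0.48 ± 0.095) and Foxm1 (0.48 ± 0.087), a transcription factor of mitotic genes. The B cyclins, Cdk1 and Mki67 did not pass: the log2 fold changes were 0.28 ± 0.12 for Ccnb1 (adjusted p = 0.276), 0.33 ± 0.11 for Ccnb2 (adjusted p = 0.141), 0.15 ± 0.074 for Cdk1 (adjusted p = 0.436) and 0.59 ± 0.18 for Mki67 (adjusted p = 0.0946). Mki67 was called with DESeq2 (adjusted p = 0.0281) and in a fit of only the groups compared (adjusted p = 3.47e-07), and had separate groups, with 21.1, 19.8 and 20.5 CPM in Dgal and 32.4, 30.1 and 30.1 CPM in Rb2_Dgal. The count of 13 was 8 without Dgal 2. The calls of Kif11, Cenpe and Kif20a were lost without Dgal 2, that of Aurkb without Dgal 2 or Rb2_Dgal 1, that of Plk1 without Dgal 1, Dgal 2 or Rb2_Dgal 1, and that of Tpx2 without Dgal 3, Rb2_Dgal 1 or Rb2_Dgal 3 (adjusted p up to 0.129). Top2a, Nuf2, Ccna2, Kif23, Ect2, Cdc20 and Foxm1 were called under all 11 alternatives.

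Levels in Rb2_Dgal stayed between those of Dgal and control. The 27 genes summed to 221 to 248 CPM in Dgal, 294 to 323 CPM in Rb2_Dgal, 457 to 462 CPM in control and 495 to 536 CPM in Rb2. All 27 had fallen in Dgal against control, where 13.1% of all tested genes fell, in a comparison that shares the Dgal libraries. In bulk RNA, fewer dividing cells and less RNA per dividing cell cannot be told apart. The myoblast markers and the mitochondrial share given above differed between the same groups, and their part in the result was not tested.

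**Figure D2:**
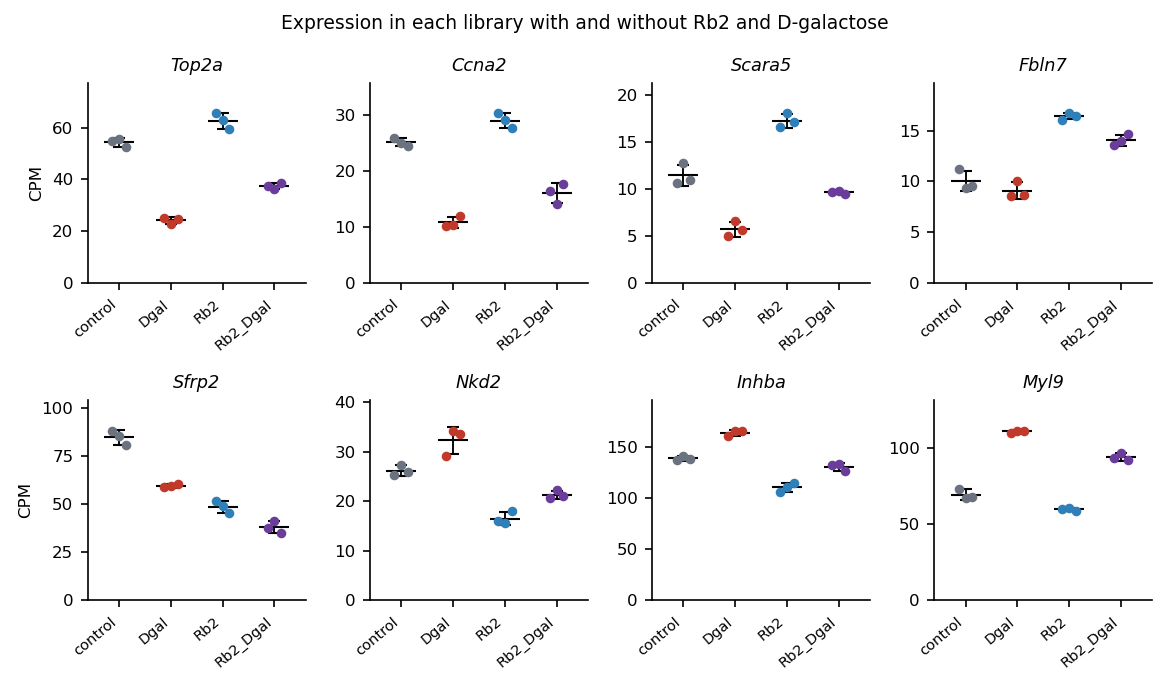
CPM of 8 genes (y axes, each from 0) in the 3 libraries of control, Dgal, Rb2 and Rb2_Dgal (x axes), with 1 point per library and the mean ± SD in black. Top2a and Ccna2 in Rb2_Dgal lie above Dgal and below control, while Sfrp2, Nkd2, Inhba and Myl9 in Rb2_Dgal lie below Dgal and above Rb2 except for Sfrp2, which lies below Rb2 too.

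Promoters of mitotic genes are known for a pair of elements, the cell cycle genes homology region with the core TTTGAA, bound by the DREAM and MuvB complexes, and CCAAT boxes, bound by NF-Y. The bases before the RefSeq start sites of 3 called members (GRCm38.p6) are shown, read in the direction of the gene, since each holds both elements, with TTTGAA and CCAAT on either strand in capitals. They lie at chr4:118437344-118437423 on the minus strand (Cdc20), chr19:37376302-37376381 on the plus strand (Kif11) and chr11:99024190-99024389 on the minus strand (Top2a).
Cdc20: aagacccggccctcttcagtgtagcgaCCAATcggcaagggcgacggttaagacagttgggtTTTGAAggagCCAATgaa
Kif11: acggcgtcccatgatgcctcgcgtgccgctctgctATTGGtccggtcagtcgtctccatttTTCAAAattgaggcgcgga
Top2a: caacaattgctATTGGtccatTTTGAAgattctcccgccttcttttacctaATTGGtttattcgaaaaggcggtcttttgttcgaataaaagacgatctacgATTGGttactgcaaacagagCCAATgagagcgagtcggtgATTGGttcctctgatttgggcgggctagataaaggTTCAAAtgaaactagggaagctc

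Promoter windows of 300 bases, 250 before to 50 after the start, were found in RefSeq for 9683 of the 12184 tested genes and for 21 of the 27 proliferation genes. TTTGAA occurred on either strand in 16 of those 21 (76.2%), against 11.5% of all 9683 windows, and CCAAT in 18 (85.7%), against 38.8%. In the 8 windows of called members the counts were 6 (75%) and 7 (87.5%), near the shares of the whole list. Mitotic genes are known for both elements, so the list's shares could be high whatever Rb2 did. Over all called genes with a window, TTTGAA was in 28 of 107 that rose (26.2%) and in 7 of 94 that fell (7.45%). These shares describe letters in the windows and not bound sites.

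Genes of DNA replication act in the S phase. Of 26 such genes 2 rose, against 1.16% of all tested genes, and 0 fell, with a median log2 fold change of 0.18 and 24 positive values. Uhrf1, which carries DNA methylation through replication, stood at 7.37, 6.43 and 6.80 CPM in Dgal and at 10.3, 9.15 and 9.71 CPM in Rb2_Dgal, with no overlap (log2 fold change 0.50 ± 0.087, adjusted p = 0.000479). Mcm2, a subunit of the replicative helicase, rose by 0.28 ± 0.067, a call lost without Dgal 2, Dgal 3, Rb2_Dgal 2 or Rb2_Dgal 3 (adjusted p up to 0.156). Rrm1 and Rrm2, the subunits of ribonucleotide reductase, had log2 fold changes of -0.01 ± 0.04 and -0.11 ± 0.04 and were not called. The count was 4 with DESeq2 and without Dgal 1, and 1 without Dgal 2, Dgal 3 or Rb2_Dgal 3. Outside the lists, the named rises included Ncapg, a condensin subunit (0.59 ± 0.10, adjusted p = 0.000409), and Tcf19, a gene first known from growing cells (0.65 ± 0.11, adjusted p = 0.000409), both called under all 11 alternatives. Ncapg stood at 5.49, 4.46 and 5.25 CPM in Dgal and at 6.68, 7.76 and 8.37 CPM in Rb2_Dgal. Esco2, which acetylates cohesin, had the largest rise among called genes of at least 2 CPM (0.85 ± 0.19, adjusted p = 0.0106), from 1.3, 1.34 and 2.14 CPM to 2.7, 3.05 and 2.94 CPM, and its call was lost without Dgal 1, Dgal 2 or Rb2_Dgal 2 (adjusted p up to 0.104).

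Among genes of Wnt signalling, several that the pathway switches on as feedback fell. In canonical signalling, Wnt proteins bind Frizzled receptors, beta-catenin escapes degradation and enters the nucleus with TCF/LEF factors, and antagonists such as Axin2 and Nkd2 are among the genes it turns on. Of 17 tested genes of this list 5 fell, against 1.1% of all tested genes, and 0 rose, with a median log2 fold change of -0.17. Sfrp2, a secreted protein that binds Wnts, stood at 58.9, 59.3 and 60.7 CPM in Dgal and at 37.6, 41.3 and 35.2 CPM in Rb2_Dgal. Its log2 fold change of -0.65 ± 0.052 had the smallest adjusted p of all genes (5.82e-10). Nkd2, which binds Dishevelled, stood at 29.2, 34.2 and 33.6 CPM in Dgal and at 20.6, 22.1 and 21.1 CPM in Rb2_Dgal (-0.60 ± 0.070, adjusted p = 2e-06). Axin2, a scaffold of the complex that degrades beta-catenin, went from 9.60, 10.7 and 10.1 CPM to 5.79, 7.10 and 7.21 CPM (-0.59 ± 0.094, adjusted p = 0.000201). In each of the 3 genes the groups were apart, which the rule for the largest falls required.

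Tnfrsf19, a TNF receptor family gene, fell by 0.51 ± 0.079 on the log2 scale, and Lgr5, the R-spondin receptor gene, by 0.48 ± 0.12. The call of Lgr5 was lost without Dgal 2, Dgal 3 or any of the Rb2_Dgal libraries (adjusted p up to 0.139), while the other 4 genes were called under all 11 alternatives. The nuclear factor genes Lef1 (-0.03 ± 0.09) and Tcf7 (-0.19 ± 0.05, adjusted p = 0.0679) were not called, nor was Znrf3, a ligase that removes Frizzled (0.05 ± 0.07). Wnt11, named among the largest falls, went from 5.72, 5.67 and 5.87 CPM to 3.58, 4.13 and 3.24 CPM (-0.66 ± 0.12, adjusted p = 0.000583). Picked after their values were seen, Wnt10a (-0.28 ± 0.053), the Wnt acyltransferase gene Porcn (-0.22 ± 0.051) and the receptor gene Fzd1 (-0.20 ± 0.030) fell too. The call of Porcn was lost without Dgal 2, Dgal 3, Rb2_Dgal 1 or Rb2_Dgal 3 (adjusted p up to 0.0774). The TCF/LEF core was searched as CTTTGAA, which holds TTTGAA, and as CTTTGAT on both strands. It was in 0 of the 9 windows found for the list, where 3.36% and 2.49% of all windows held it. So few windows can hold 0 at those shares, and 4 of the 9 were of called members. Bases outside the windows were not searched. On GRCm38, Sfrp2 lies at chr3:83766321-83774316, Nkd2 at chr13:73818534-73847631 and Axin2 at chr11:108920349-108950783.

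Several ligands and antagonists of the activin, BMP and TGF-beta families fell. Activins and myostatin act through activin receptors and limit muscle growth, follistatin binds both, and noggin binds BMPs. Of 21 tested genes 7 fell, against 1.1% of all tested genes, and 0 rose, with a median log2 fold change of -0.026. Inhba, the activin A subunit gene, stood at 161, 166 and 166 CPM in Dgal and at 133, 134 and 127 CPM in Rb2_Dgal. Inhbb, the activin B subunit gene, stood at 131, 141 and 131 CPM in Dgal and at 108, 107 and 112 CPM in Rb2_Dgal. Fst, the follistatin gene, stood at 164, 160 and 152 CPM in Dgal and at 123, 122 and 126 CPM in Rb2_Dgal. All 3 Rb2_Dgal libraries lay below all 3 Dgal libraries for each of these genes, so that ligand subunits and their antagonist were both lower. The log2 fold changes were -0.33 ± 0.042 for Inhba (adjusted p = 5.84e-06), -0.30 ± 0.044 for Inhbb (adjusted p = 4.8e-05) and -0.36 ± 0.047 for Fst (adjusted p = 9.81e-06).

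The BMP antagonist gene Nog fell (-0.62 ± 0.16, from 2.69 ± 0.226 to 1.76 ± 0.237 CPM, SD, n = 3), as did Bmp4 (-0.19 ± 0.053) and Tgfb2 (-0.17 ± 0.041). The receptor genes Acvr1b, Acvr2a, Acvr2b and Tgfbr1 had log2 fold changes from -0.003 to 0.11 and were not called. Tgfbr2, a TGF-beta receptor gene outside the list and picked after its values were seen, fell by 0.14 ± 0.037 (adjusted p = 0.033), a call lost without any 1 of the 6 libraries (adjusted p up to 0.136). Inhba, Inhbb and Fst were called under all 11 alternatives. The count of 7 was 4 without Dgal 3 or without Rb2_Dgal 3, where Tgfb2 was lost, also without Rb2_Dgal 2. Nog was lost without Dgal 1, Dgal 3, Rb2_Dgal 1 or Rb2_Dgal 3, and Bmp4 without any library but Rb2_Dgal 2 and with no filter on low counts (adjusted p up to 0.199). Mstn, the myostatin gene, did not pass the filter on low counts.

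Genes of smooth-muscle-type contractile proteins, which serum response factor and TGF-beta signalling drive, were lower after Rb2. Of 18 tested genes 9 fell, against 1.1% of all tested genes, and 0 rose, 17 had a negative log2 fold change and the median was -0.16. Myl9, a regulatory myosin light chain gene, stood at 110, 111 and 111 CPM in Dgal and at 93.4, 96.4 and 91.6 CPM in Rb2_Dgal (-0.24 ± 0.040, adjusted p = 0.000353). Cnn2, a calponin gene, stood at 240, 228 and 233 CPM in Dgal and at 213, 203 and 203 CPM in Rb2_Dgal (-0.18 ± 0.038, adjusted p = 0.00547). Filip1l, a filamin-interacting protein gene, fell from 137, 150 and 147 CPM to 115, 118 and 115 CPM (-0.32 ± 0.060, adjusted p = 0.00203). The groups did not overlap in any of these genes.

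The actin genes Actg2 (-0.34 ± 0.057) and Acta2 (-0.17 ± 0.037) fell as well, and since their sequences are close, the division of reads between them is uncertain. Cnn1 (-0.61 ± 0.13), Lmod1 (-0.33 ± 0.074) and Fhl1 (-0.17 ± 0.036) were also among the 9. The count was 4 without Dgal 2, where Acta2, Cnn1, Lmod1 and Fhl1 were among those lost, and 5 without Rb2_Dgal 3, where Acta2, Cnn1 and Lmod1 were (adjusted p of these genes up to 0.0952). Actg2, Cnn2, Filip1l and Myl9 were called under all 11 alternatives. Tagln (-0.15 ± 0.061, adjusted p = 0.296) and Srf itself (0.03 ± 0.05) were not called. In Dgal against control, with the Dgal libraries in common, 13 of the 18 rose, where 11.9% of all tested genes did, Myl9 from 69.1 ± 3.39 to 111 ± 0.820 CPM.

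The CArG box, the site that serum response factor binds, was found on either strand in 6 of 15 windows of this list (40%) and in 1.34% of all 9683 windows. The list holds genes that this factor drives, so its share could be high whatever Rb2 did. Over all called genes with a window, the box was in 4 of 94 that fell (4.26%) and in 3 of 107 that rose (2.80%). Among the 7 windows of called list members the box was in Cnn2, Myl9 and Fhl1 (42.9%). Their bases before the start are shown with the box in capitals, from chr10:79988500-79988599 on the plus strand (Cnn2), chr2:156775284-156775463 on the plus strand (Myl9) and chrX:56779563-56779682 on the plus strand (Fhl1, which has more than 1 start site), per RefSeq and GRCm38.p6.
Cnn2: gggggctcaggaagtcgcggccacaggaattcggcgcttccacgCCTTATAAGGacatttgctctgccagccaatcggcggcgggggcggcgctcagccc
Myl9: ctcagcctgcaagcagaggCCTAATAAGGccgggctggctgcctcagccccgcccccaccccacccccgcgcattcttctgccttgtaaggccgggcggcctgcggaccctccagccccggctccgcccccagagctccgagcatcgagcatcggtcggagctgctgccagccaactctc
Fhl1: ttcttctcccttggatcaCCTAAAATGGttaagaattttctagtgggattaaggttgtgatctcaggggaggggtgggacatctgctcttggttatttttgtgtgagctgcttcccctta

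Matrix genes moved in both directions. Of 23 listed collagen genes 6 rose and 1 fell, against 1.16% and 1.1% of all tested genes, with a median log2 fold change of 0.16. Col3a1, a fibrillar collagen gene, stood at 6112, 5689 and 6040 CPM in Dgal and at 7217, 7012 and 7090 CPM in Rb2_Dgal (0.26 ± 0.036, adjusted p = 3.22e-05). Col14a1, which associates with fibrils, rose from 4.06, 3.44 and 4.59 CPM to 7.03, 7.06 and 7.44 CPM (0.83 ± 0.17, adjusted p = 0.00558), a call lost without Dgal 2 (adjusted p = 0.0592). Col23a1, a collagen that spans the cell membrane, fell from 19.5, 18.7 and 18.5 CPM to 11.1, 9.99 and 11 CPM (-0.82 ± 0.072, adjusted p = 3.15e-09). The groups were apart in all 3 genes, which the rule for the largest rises and falls required of Col14a1 and Col23a1. The other rises were Col5a3 (0.27 ± 0.054), Col1a2 (0.22 ± 0.056), Col4a1 (0.18 ± 0.050) and Col6a2 (0.18 ± 0.045), while Col1a1 was not called (0.24 ± 0.10, adjusted p = 0.339). The count of 6 was 2 without Dgal 2 and 3 without Rb2_Dgal 1 or Rb2_Dgal 2, and of the listed genes Col3a1 and Col5a3 rose under all 11 alternatives. Outside the list, and picked after their values were seen, Col8a2 rose under all 11 as well (0.48 ± 0.076), and Col28a1 fell (-0.56 ± 0.14), a call lost with only the groups compared and without Dgal 2, Dgal 3, Rb2_Dgal 1 or Rb2_Dgal 3 (adjusted p up to 0.161). Col1a2 was lost without Dgal 2 or any Rb2_Dgal library, Col6a2 without Dgal 1, Dgal 2, Rb2_Dgal 1 or Rb2_Dgal 2, and Col4a1 with the replicate block and without any library but Dgal 3 (adjusted p up to 0.221). Summed fibroblast markers, most of which is Col3a1, took 0.594% to 0.639% of the counts in Dgal and 0.720% to 0.741% in Rb2_Dgal, and no other of 8 tested fibroblast markers was called.

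Among other matrix genes, 1 of 28 rose and 1 fell, against 1.16% and 1.1% of all tested genes. Fbln7, which encodes the adhesion protein fibulin-7, stood at 8.58, 10.0 and 8.63 CPM in Dgal and at 13.6, 14 and 14.7 CPM in Rb2_Dgal (0.63 ± 0.076, adjusted p = 2.76e-06). Ccdc80 fell by 0.18 ± 0.029 on the log2 scale. Of 17 proteases and inhibitors 3 fell and 0 rose, among them Plat, the tissue plasminogen activator gene (-0.21 ± 0.037), and the metalloprotease inhibitor gene Timp3 (-0.19 ± 0.043). The call of Plat held under all 11 alternatives, and the count was 1 without Dgal 2, Dgal 3 or Rb2_Dgal 3, where Timp3 was among those lost (adjusted p up to 0.0654).

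A scavenger receptor gene and a growth factor gene were among the larger rises. Scara5, a scavenger receptor that takes up ferritin, stood at 4.96, 6.56 and 5.64 CPM in Dgal and at 9.68, 9.76 and 9.48 CPM in Rb2_Dgal. Ptn, the heparin-binding growth factor pleiotrophin, stood at 5.14, 4.37 and 4.39 CPM in Dgal and at 8.71, 7.14 and 7.18 CPM in Rb2_Dgal. Both were higher in every Rb2_Dgal library, which the rule for the largest rises required. The log2 fold changes were 0.75 ± 0.10 (adjusted p = 1.07e-05) and 0.72 ± 0.11 (adjusted p = 7.31e-05). Scara5 was the 1 called gene of 12 iron genes, where 2.26% of all tested genes were called. The ferritin subunits Fth1 (0.07) and Ftl1 (-0.05) and the transferrin receptor Tfrc (0.08) were not called. Of 15 heparin-binding growth factor and proteoglycan genes, Ptn rose, and Hbegf (-0.23 ± 0.051) and the syndecan gene Sdc2 (-0.10 ± 0.027) fell. Over all tested genes 1.16% rose and 1.1% fell. The call of Hbegf was lost without Dgal 3 or Rb2_Dgal 1, and that of Sdc2 in 7 of 11 alternatives, among them each library but Dgal 1 left out (adjusted p up to 0.217).

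In a list of secreted genes linked to senescence, 3 of 23 rose and 1 fell, against 1.16% and 1.1% of all tested genes. Hgf, the hepatocyte growth factor gene, stood at 29.0, 29.0 and 31.5 CPM in Dgal and at 37.6, 38.9 and 35.8 CPM in Rb2_Dgal (0.33 ± 0.056, adjusted p = 0.000458). Spp1, the osteopontin gene (0.24 ± 0.038), and the chemokine gene Cxcl12 (0.23 ± 0.036) rose with separate groups as well. The cytokine and chemokine genes Il6 (-0.01), Il1b (-0.41), Ccl2 (-0.15) and Cxcl1 (-0.09) were not called. Edn1, the endothelin-1 gene, was among the largest falls, from 5.00, 5.09 and 5.21 CPM to 3.23, 3.20 and 2.71 CPM (-0.75 ± 0.14, adjusted p = 0.00102). Cpa4, a carboxypeptidase gene, had the largest fall of all called genes, from 2.28, 2.86 and 3.03 CPM to 1.46, 1.12 and 1.52 CPM (-1.0 ± 0.19, adjusted p = 0.00211).

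Genes of muscle structure were compared by list. Of 8 myosin heavy chain genes, which share long stretches of sequence, 3 rose, against 1.16% of all tested genes: Myh8, the perinatal form (0.32 ± 0.063), Myh2 (0.29 ± 0.077) and Myh7 (0.22 ± 0.057). Myh8 stood at 427, 453 and 500 CPM in Dgal and at 547, 607 and 572 CPM in Rb2_Dgal, and was called under all 11 alternatives. The count was 1 without Dgal 1, Dgal 2, Rb2_Dgal 2 or Rb2_Dgal 3, where Myh2 and Myh7 were lost (adjusted p up to 0.244), and 5 in a fit of only the groups compared. Myh2 was lost with the replicate block (adjusted p = 0.0632) and with no filter on low counts (adjusted p = 0.0644) too. Of 38 sarcomere genes 1 fell, Myoz2 (-0.19 ± 0.040, lost without Dgal 2 at adjusted p = 0.0623), against 1.1% of all tested genes. None of 17 myogenic factor genes and 19 atrophy genes was called, where 2.26% of all tested genes were. Myog had a log2 fold change of -0.04 ± 0.047, the atrophy ligase genes Fbxo32 and Trim63 had -0.03 ± 0.050 and 0.15 ± 0.061, and Myh3 had -0.10 ± 0.044 (adjusted p = 0.316).

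In metabolism, 2 of 25 cholesterol synthesis genes rose, against 1.16% of all tested genes. Of the 25, 23 had positive log2 fold changes (median 0.11, against 0.0022 over all tested genes). Insig1, a sterol-regulated inhibitor of the pathway, stood at 105, 90.3 and 100.3 CPM in Dgal and at 117, 115 and 123 CPM in Rb2_Dgal (0.26 ± 0.043, adjusted p = 0.000201). Dhcr7, the last reductase of the pathway, rose by 0.16 ± 0.037, a call lost without Dgal 1 or Rb2_Dgal 2 (adjusted p up to 0.11). Of the 13 mitochondrially encoded genes 1 fell, against 1.1% of all tested genes, and the median was -0.22. That gene, mt-Nd6, stood at 175, 169 and 203 CPM in Dgal and at 138, 131 and 124 CPM in Rb2_Dgal (-0.48 ± 0.11, adjusted p = 0.0192), and its call was lost without Dgal 3, Rb2_Dgal 2 or Rb2_Dgal 3 (adjusted p up to 0.119). Of 26 glycolysis, 26 nuclear oxidative phosphorylation and 23 fatty acid oxidation genes 0 were called. Over all tested genes 2.26% were called, and lists of this size can hold 0 at that share. Ppargc1a, a coactivator gene of mitochondrial biogenesis, was not called (-0.61 ± 0.17, adjusted p = 0.0542) at 2.14, 1.87 and 2.68 CPM in Dgal and 1.33, 1.43 and 1.64 CPM in Rb2_Dgal.

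Lists of stress responses held 1 called gene, where 2.26% of all tested genes were called, and lists of this size can hold 0 or 1 at that share. None of 26 p53 target genes, 26 genes of the integrated stress response, 20 endoplasmic reticulum chaperone genes, 19 heat shock genes, 27 proteasome genes and 25 autophagy and lysosome genes was called. For Cdkn1a, which encodes the cell cycle inhibitor p21, it was -0.03 ± 0.038 on the log2 scale. Among 25 NRF2 targets 1 fell, the epoxide hydrolase gene Ephx1 (-0.23 ± 0.049), a call lost without Dgal 2 or Rb2_Dgal 2 (adjusted p up to 0.154), while Hmox1 (-0.10 ± 0.044, adjusted p = 0.357) and Nqo1 (0.05 ± 0.15) were not called. Arrdc3, Slc16a6 and Rgcc, which rose in Dgal against control by 1.07, 1.29 and 1.47 on the log2 scale, were not called in Rb2_Dgal against Dgal. Arrdc3 was 117 ± 7.66 CPM in Dgal and 116 ± 4.24 CPM in Rb2_Dgal, Slc16a6 14.3 ± 0.971 and 14.1 ± 1.04 CPM, and Rgcc 13.2 ± 0.636 and 11.7 ± 1.42 CPM (SD, n = 3). Their log2 fold changes were -0.01 ± 0.056, -0.01 ± 0.074 and -0.17 ± 0.10.

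To ask how far the Rb2 effect depended on D-galactose, it was set beside Rb2 against control, which shares no library with it. Without D-galactose 187 genes (1.53% of those tested) were called, 70 higher (0.575%) and 117 lower (0.96%), and 115 were called without control 3. Of the 275 genes called under D-galactose, 96 (34.9%) were called there too, which is 51.3% of the 187, all of them in the same direction. The shares were 24.8% of the genes that rose under D-galactose and 45.5% of those that fell. Of the 275 genes 267 had the same sign in both. Across all tested genes the log2 fold changes correlated weakly (Pearson r = 0.29, Spearman rho = 0.27), as a description over genes that share libraries within each contrast.

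Several genes of the Wnt and activin lists fell in both settings, but not all moved that way. In the Wnt list Dkk3 (0.24, adjusted p = 0.00495 in edgeR) and Sfrp4 (0.36, adjusted p = 0.0413) rose after Rb2 alone. Under D-galactose these were at 0.14 and 0.31 and not called. Nog was not called after Rb2 alone (-0.44, adjusted p = 0.0667). Sfrp2 fell from 85.0 ± 3.82 CPM in control to 48.8 ± 3.15 CPM in Rb2 (log2 fold change -0.80) and Axin2 from 8.73 ± 1.10 to 5.91 ± 0.620 CPM (-0.57), and Inhba fell by 0.33 and Inhbb by 0.23 on the log2 scale. Col23a1 (-1.01), Edn1 (-0.91), Ptn (0.84), Fbln7 (0.70), Col14a1 (0.88) and Scara5 (0.60) were called without D-galactose as well. Of the 27 proliferation genes 2 rose without D-galactose, Nuf2 (0.33) and Pbk (0.39), with a median of 0.17. Top2a was 54.2 ± 1.64 CPM in control and 62.6 ± 3.12 CPM in Rb2 (0.21 ± 0.09, adjusted p = 0.318), against the 0.63 found under D-galactose.

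**Figure D3:**
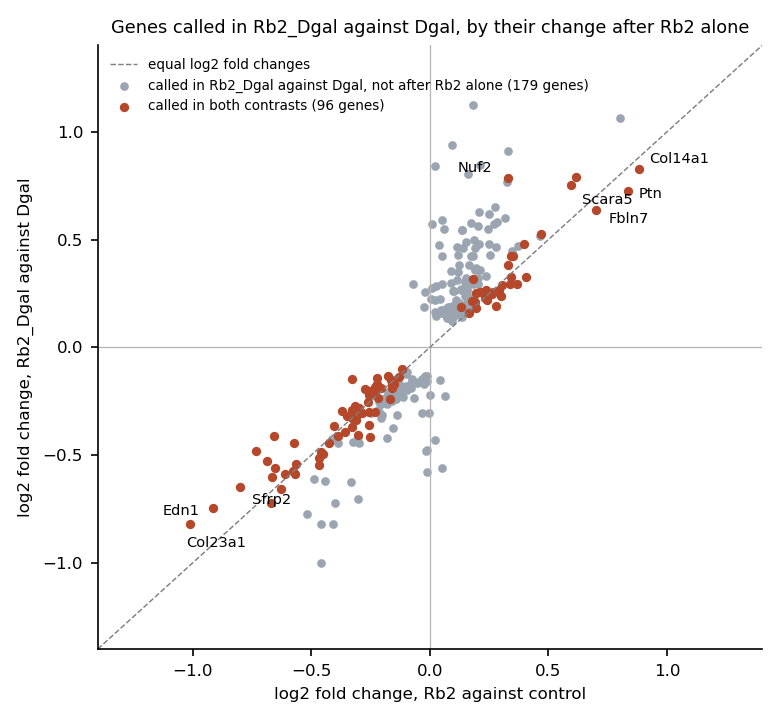
Log2 fold change of each of the 275 genes called in Rb2_Dgal against Dgal (y axis) against its log2 fold change in Rb2 against control (x axis), with the 96 genes called in both in red and the line of equal changes dashed. Sfrp2 lies at -0.80 and -0.65, and Top2a, not among the red points, at 0.21 and 0.63.

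The difference between the Rb2 effects with and without D-galactose was tested directly as an interaction. No gene was called with edgeR or with DESeq2, the smallest edgeR adjusted p was 0.777, and 546 genes (4.48%) had an unadjusted p under 0.05. For Top2a the difference was 0.42 (95% interval 0.16 to 0.68, not adjusted for the number of genes, adjusted p = 0.96), for Ncapg 0.54 (0.28 to 0.80, adjusted p = 0.777) and for Nuf2 0.46 (0.20 to 0.71, adjusted p = 0.96). For Sfrp2 it was 0.15 (0.01 to 0.29) and for Fbln7 -0.07 (-0.27 to 0.14). A miss of the threshold does not show equal effects. Top2a, Ncapg, Nuf2, Sfrp2 and Fbln7 were named for large changes in Rb2_Dgal against Dgal, which is part of this difference. Ncapg was also named for its small interaction p. The intervals are not corrected for that choice and may be shifted by it. Over the 27 proliferation genes 25 differences were positive, with a median of 0.28, against 0.0045 over all tested genes. The harvest time of the Rb2 cultures is not given in the labels, and its part in these differences was not tested. The 6 genes of smallest p at 2 CPM or more were Ncapg, Ephx1, Myh3, Gas6, Mss51 and Pnpt1, all at an adjusted p of 0.777. Gas6, a ligand of TAM receptors, rose after Rb2 alone (31.0 ± 1.55 to 38.5 ± 2.02 CPM) and was 38.5 ± 0.686 CPM in Dgal and 38.3 ± 1.01 CPM in Rb2_Dgal.

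Finally, Rb2_Dgal was set beside the 3 other pretreatments ahead of D-galactose: a water extract of red ginseng (RGW_Dgal), its saponin fraction (SFr_Dgal) and its non-saponin fraction (NSFr_Dgal), each at 100 µg/mL. These doses are of mixtures and in other units than that of Rb2. In direct tests 968 genes (7.94%) differed from RGW_Dgal, with 3.64% higher and 4.31% lower in Rb2_Dgal. Against NSFr_Dgal 1126 (9.24%) differed, 4.13% higher and 5.11% lower, and against SFr_Dgal 5050 (41.4%), 21.1% higher and 20.3% lower. The count for Rb2_Dgal against RGW_Dgal was 629 without Rb2_Dgal 1 and 630 without RGW_Dgal 2. That for Rb2_Dgal against NSFr_Dgal was 661 without Rb2_Dgal 1, 711 without Rb2_Dgal 2 and 708 to 738 without any 1 NSFr_Dgal library, and 1947 in a fit of only the groups compared. Sfrp2 was 38.0 ± 3.08 CPM in Rb2_Dgal, 78.6 ± 1.4 in RGW_Dgal, 66.8 ± 3.36 in NSFr_Dgal and 76.1 ± 1.53 in SFr_Dgal (SD, n = 3). It was lower in Rb2_Dgal than in each of them, by log2 fold changes of -1.05 (adjusted p = 2.33e-16), -0.81 (adjusted p = 1.98e-13) and -1.0 (adjusted p = 1.57e-17). Nkd2 was likewise lower than in all 3, by -0.89, -0.80 and -0.55. Other Wnt genes named above fell with the saponin fraction too. In SFr_Dgal against Dgal, Tnfrsf19 had a log2 fold change of -1.37, Wnt11 -1.20 and Axin2 -0.35, all called. In Rb2_Dgal against Dgal these were -0.51, -0.66 and -0.59. Sfrp2 rose in SFr_Dgal against Dgal (0.35), and Nkd2 was not called there (-0.05).

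Edn1, Top2a, Scara5 and Fst were compared by direct tests between the pretreatments as well. Edn1 was 3.05 ± 0.289 CPM in Rb2_Dgal, lower than in RGW_Dgal (4.94 ± 0.441 CPM, adjusted p = 0.000563) and NSFr_Dgal (5.02 ± 0.569 CPM, adjusted p = 0.000395), and 2.45 ± 0.461 CPM in SFr_Dgal (difference 0.32 ± 0.15, adjusted p = 0.09). Top2a was 37.4 ± 1.11 CPM in Rb2_Dgal, 34.8 ± 2.96 CPM in NSFr_Dgal (difference 0.10 ± 0.094, adjusted p = 0.56), 26.6 ± 2.93 CPM in RGW_Dgal (0.49, adjusted p = 0.00148) and 13 ± 0.683 CPM in SFr_Dgal (1.52, adjusted p = 8.43e-12). Scara5 was 9.64 ± 0.144 CPM in Rb2_Dgal, above RGW_Dgal (6.73 ± 1.00 CPM) and NSFr_Dgal (6.45 ± 0.13 CPM) and below SFr_Dgal (21.0 ± 1.01 CPM). Fst was 124 ± 2.07 CPM in Rb2_Dgal, below RGW_Dgal (-0.40) and NSFr_Dgal (-0.47) on the log2 scale, and above the 45.3 ± 2.94 CPM of SFr_Dgal (1.45 ± 0.050).

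**Figure D4:**
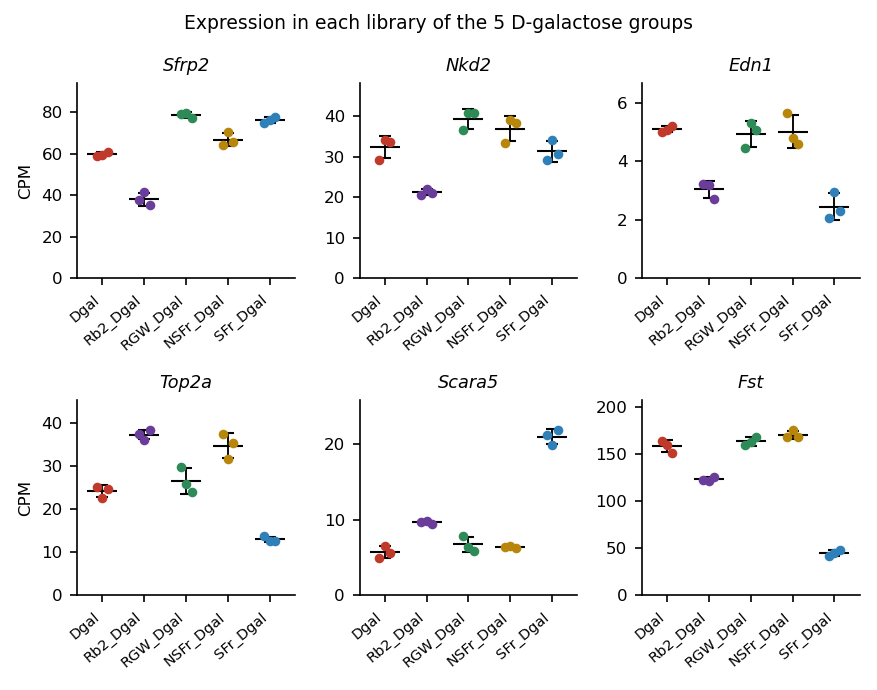
CPM of 6 genes (y axes, each from 0) in the 3 libraries of Dgal, Rb2_Dgal, RGW_Dgal, NSFr_Dgal and SFr_Dgal (x axes), with 1 point per library and the mean ± SD in black. Sfrp2 and Nkd2 are lowest in Rb2_Dgal, while Edn1 and Fst are lowest in SFr_Dgal and Scara5 is highest there.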

How the data were processed

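RNA was sequenced from C2C12 myotubes by the submitters, with poly(A) selection and a directional library kit, per the labels' protocols. The deposited table holds RSEM expected counts per gene, not normalized. The submitters' processing notes name GRCm38 and mm10 and list STAR 2.7.9a, RSEM 1.3.3, Trim Galore 0.6.10 and FastQC 0.11.9. Which annotation was counted, and with which strand setting, is not given in the sources used here, so close copies and overlapping genes are uncertain.

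Expected counts, 19.4% of them not whole, were rounded. edgeR 4.0.16 in R 4.3.3 (quasi-likelihood F-test, robust, TMM, filterByExpr) was fitted as 1 group model over all 30 libraries, with Benjamini-Hochberg adjustment over 12184 genes. The common dispersion of 0.00181 corresponds to a biological coefficient of variation of 4.25%. A standard error is the size of the log2 fold change over the root of its F. After a log2 value ± gives this SE, and after CPM the SD over 3 libraries. CPM were scaled to the total over kept genes times the TMM factor, and marker sums to the full total. The floor of 3 counts covers counting error only. The test was checked on simulated counts.

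Members and the 50 gene lists (924 genes, 827 tested, 62 in more than 1 list) were chosen with earlier results of these data known. Named by rule were the 15 largest rises and 15 largest falls among called genes with separate groups and at least 2 CPM on average, predicted genes left out. Up to 4 called members of each list, a fixed set, and the 6 smallest p of the interaction were added, 92 genes in all, some only summarised and a few not reported here. Other list members are given to complete a list. Direct tests against RGW_Dgal and NSFr_Dgal were added after seeing the data, as were most list counts under alternatives. Those tried were RLE scaling, every gene with a count, DESeq2 1.42.0, a replicate block, the compared groups alone in the fit, and the omission of each library. Of the symbols, 16021 matched GENCODE vM21, which gave gene coordinates. RefSeq promoter windows gave the sequences. No library was left out of the main tests.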

Additional observations from a re-analysis of the deposited data

How the results depend on the processing

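The call count of Rb2_Dgal against Dgal, 275, was 276 with RLE scaling, 258 with no filter, 292 with DESeq2 and 365 in a fit of only the 2 groups. With 1 library left out, counts ranged from 126 to 227 for Rb2_Dgal against Dgal, 115 to 209 for Rb2 against control (115 without control 3), 2104 to 2787 for Dgal against control, 4276 to 4764 against SFr_Dgal, 629 to 852 against RGW_Dgal and 661 to 773 against NSFr_Dgal, and stayed 0 for the interaction. Among lists they ranged from 8 to 14 for proliferation, 1 to 4 for DNA replication, 4 to 5 for Wnt feedback, 4 to 9 for contractile genes, 4 to 6 for the activin list, 2 to 7 for collagens, 1 to 3 for proteases and 1 to 3 for myosins. With only the groups compared, Rb2 against control gave 106, Rb2_Dgal against NSFr_Dgal 1947 and myosins 5; DNA replication gave 4 with DESeq2. The cause was not tested. The replicate numbers are not shown to pair the cultures: same-numbered Dgal and Rb2_Dgal libraries correlated by 0.0719, 0.0547 and -0.0024 in their deviations from the group means. With the replicate number as a block the count was 276 (144 higher, 132 lower, 264 shared), and DNA replication gave 4. Of 92 named genes, 1012 values under alternatives held 900 on the same side of the threshold, 107 that lost a call, 5 that gained one and 0 of the opposite sign, and 31 of 71 called genes lost a call at least once. RLE scaling moved the median of all genes to 0.0016.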

Other observations

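Genes best known from stratified epithelium and skin stood among those that fell, though no list held them and they were picked after their values were seen. Krt19, a keratin gene, stood at 16.8, 18.5 and 17.2 CPM in Dgal and at 13, 12.7 and 12.9 CPM in Rb2_Dgal (log2 fold change -0.44 ± 0.095), a call lost without Dgal 2 (adjusted p = 0.0592). Asprv1, a protease gene of the epidermis, stood at 34.9, 34.8 and 32.9 CPM in Dgal and at 24.0, 23.1 and 25.7 CPM in Rb2_Dgal (-0.49 ± 0.062, adjusted p = 5.37e-06). Cd24a, a surface glycoprotein gene (-0.37 ± 0.061), also fell, and it and Asprv1 were called under all 11 alternatives. After Rb2 alone Asprv1 and Cd24a fell by 0.45 and 0.40 on the log2 scale.

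Immune signalling genes moved in both directions, again picked after their values were seen. Il33, an alarmin cytokine gene, stood at 44.7, 48.2 and 49.3 CPM in Dgal and at 36.0, 34.9 and 35.8 CPM in Rb2_Dgal (-0.42 ± 0.049, adjusted p = 2.11e-06). Tnfsf9, a TNF family ligand gene (-0.49 ± 0.089), and the chemokine receptor gene Cxcr6 (-0.58 ± 0.11) fell, while the chemokine genes Cxcl14 (0.36 ± 0.064) and Cx3cl1 (0.26 ± 0.050) rose, all called under all 11 alternatives. The groups did not overlap in any of these 5 genes.

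Among transporters and channels, Slc1a3, a glutamate transporter gene, stood at 16.4, 16.5 and 16.3 CPM in Dgal and at 23.3, 24.2 and 23.2 CPM in Rb2_Dgal (0.52 ± 0.060, adjusted p = 1.64e-06). Gja5, a connexin gene, stood at 59.3, 60.3 and 54.4 CPM in Dgal and at 40.1, 36.4 and 42.7 CPM in Rb2_Dgal (-0.54 ± 0.066, adjusted p = 5.44e-06). Both were called after Rb2 alone as well, with log2 fold changes of 0.47 and -0.56.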
